A study of Mus musculus with 12 samples.

Results

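The nuclear genes for the subunits of the mitochondrial respiratory chain and the ATP synthase were followed in Min6 cells, a mouse beta cell line derived from an insulinoma, under 4 treatments. A gene was included when its name began with Nduf, Uqcr, Cox4, Cox5, Cox6, Cox7, Cox8 or Atp5, or was Sdha, Sdhb, Sdhc, Sdhd, Cyc1 or Cycs. Names of assembly factors (Ndufaf) and of numbered pseudogenes were left out. Of the 55487 genes in the count table, 92 met this rule. Of these, 88 were annotated as protein-coding and 4 as processed pseudogenes. A filter on low counts kept 87 genes, 83 of them protein-coding. The 5 that were dropped were Cox4i2, Cox7b2, Cox8b, Cox8c and a second entry for Atp5o, with at most 37 counts over all libraries. Among the 87, Cox6b2 lay above the count minimum in 11 libraries and Ndufa4l2 in 9, and the other 85 in all 12.

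Treatment lasted 48 h. The control group had the solvent DMSO, and the others had 1 µM FoxOi (AS1842856, a small molecule that inhibits the transcription factor FoxO1), 5 µM loperamide (a drug that activates opioid receptors), or both together (FoxOi_Loperamide), with 3 libraries in each group. Poly(A) RNA was made into stranded libraries. All groups are 1 cell line, and nothing in the labels says that the libraries of a group came from separate cultures, so p-values measure the spread between these libraries, which may be technical. The comparisons asked how each compound, alone or on top of the other, changed the level of these transcripts.

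Oxidative phosphorylation takes electrons from NADH at complex I and from succinate at complex II, passes them through complex III, cytochrome c and complex IV to oxygen, and uses the proton gradient made on the way to drive complex V, the ATP synthase. Most subunits are encoded in the nucleus and imported, while a small set, including core proteins of complexes I, III, IV and V, is encoded in mitochondrial DNA. In beta cells the ATP made from glucose in this way closes potassium channels and triggers insulin release.

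Depth ran from 10640485 counts in replicate 1 of loperamide to 19499216 in replicate 3 of FoxOi, and each loperamide library was below every library of the other groups. The 8 beta cell markers (Ins1, Ins2 and others) summed to between 26750 and 84582 CPM (counts relative to a scaled library size, on the usual CPM scale) in all libraries. Their sum was lower in FoxOi (34588 to 39389 CPM) and FoxOi_Loperamide (26750 to 31542 CPM) than in DMSO (60970 to 84582 CPM), while the loperamide libraries lay at 62631 to 63048 CPM. Ins2 and Iapp made up most of it. Means in DMSO, FoxOi, loperamide and FoxOi_Loperamide were 46573, 18113, 43346 and 18988 CPM for Ins2. Iapp had 18235, 14650, 13308 and 6229, and Ins1 3889, 1385, 2511 and 1051. Pdx1, Nkx6-1 and Mafa also had lower means in both groups with FoxOi. G6pc2 had 1663, 1703, 1811 and 1618 CPM, and Slc30a8, whose FoxOi and DMSO libraries overlapped, 390, 318, 414 and 369. Summed alpha cell markers (4 genes) ran from 581 to 816 CPM in DMSO, 878 to 1259 in FoxOi, 107 to 167 in loperamide and 528 to 700 in FoxOi_Loperamide. Gcg made up most of these, with means of 717, 1083, 121 and 586 CPM in the same order. The 4 macrophage and leukocyte markers summed to at most 3.51 CPM in DMSO and 1.65 CPM in loperamide, but to between 18.6 and 19.3 CPM in FoxOi and 4.35 to 5.06 in FoxOi_Loperamide. Cd68 made up most of these sums, with means of 2.07, 1.20, 17.8 and 4.54 CPM in the same order. Ptprc had 5 counts and Adgre1 3 over all libraries. Csf1r had means of 0.575 CPM in DMSO, 0.306 in loperamide, 1.12 in FoxOi and 0.0752 in FoxOi_Loperamide. Both delta cell markers together, Sst and Hhex, had 36.3 to 75.04 CPM in DMSO, 51.2 to 142 in FoxOi, 6.46 to 15.9 in loperamide and 8.30 to 17.1 in FoxOi_Loperamide. The 3 ductal markers, nearly all Krt7, summed to 248 to 337, 124 to 162, 165 to 225 and 116 to 169 CPM in the same order. Hhex had 1 count over all libraries. Of 4 acinar markers 3 had no count in any library. The part of these shifts in the values below was not tested.

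In DMSO the subunit genes were among the most highly expressed in the cell. Of the 87, 54 ranked within the top 1000 of 16808 genes by FPKM (the authors' values scaled by gene length and depth, which lets genes be compared) and 69 within the top 2000. Atp5b, the catalytic beta subunit of ATP synthase, was highest at 595 ± 22.4 FPKM (SD, n = 3). It was followed by Cox8a at 458 ± 49.1 and Cox6a1 at 446 ± 69.5 FPKM, small subunits of complex IV. Median levels were 70.2 FPKM for the 36 genes of complex I, 91.7 for the 4 of complex II, 114 for the 9 of complex III, 122 for the 16 of complex IV and 126 for the 17 of complex V. Cycs, the electron carrier cytochrome c, had 35.1 ± 4.20 FPKM. Complex I ran from Ndufb2 at 6.25 ± 0.651 FPKM to Ndufa1 at 338 ± 19.3 FPKM, so the ranges of the complexes overlapped. Low levels were found for alternative isoforms: Cox7a1 had 3.61 ± 0.685, Cox6b2 1.05 ± 0.291 and Ndufa4l2 0.882 ± 0.359 FPKM.

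**Figure D1:**
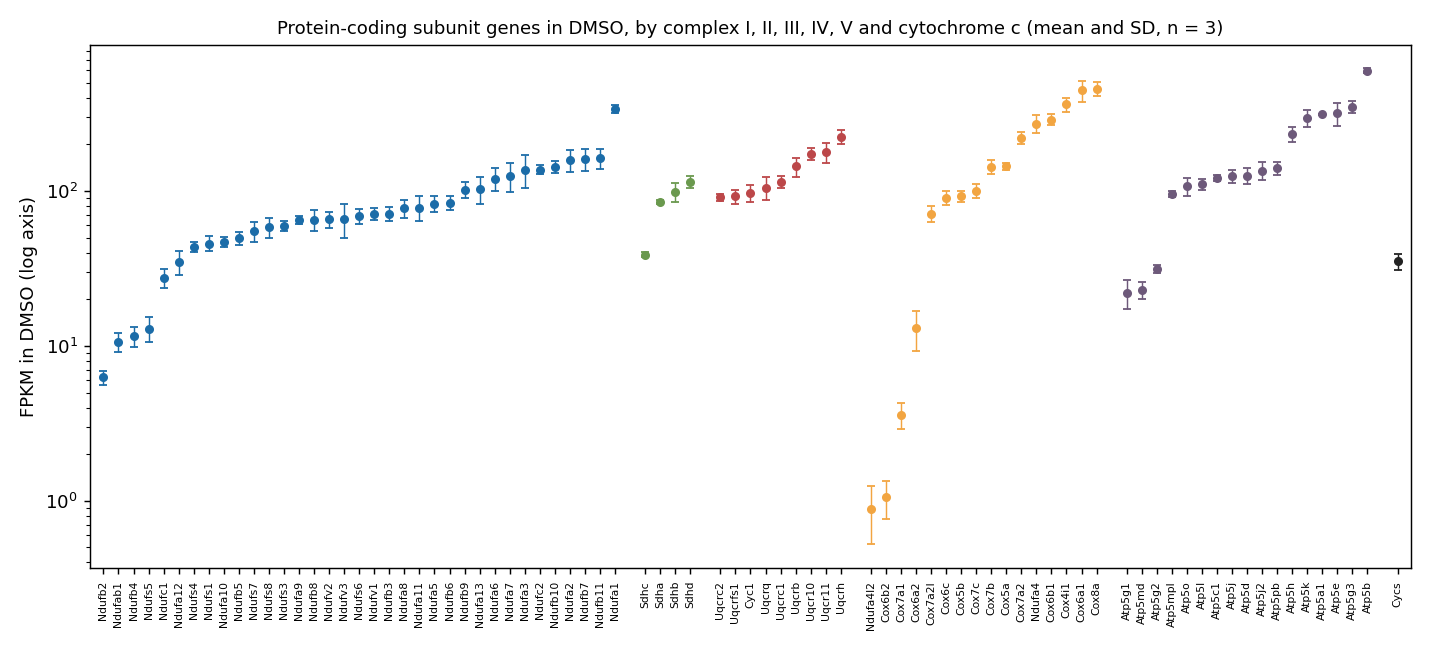
FPKM of the tested protein-coding subunit genes, all but 1 of complex I, in the 3 DMSO libraries (points, mean; bars, SD; log axis), sorted within complex I, II, III, IV, V and cytochrome c. Atp5b of complex V is highest, while Cox6b2 and Ndufa4l2 of complex IV lie near 1 FPKM.

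Members of every complex were lower with loperamide. Against DMSO, 44 of 87 members were lower and 1 was higher at an adjusted p under 0.05 (edgeR's quasi-likelihood test, Benjamini-Hochberg over 16808 genes), where 15.8% of all genes tested were lower and 16.1% higher. The median log2 fold change was -0.31 over the members, 1.24-fold lower, and 0.02 over all genes. Where only genes averaging 20 CPM or more were counted, a limit chosen after the values were seen, 54.5% of 77 members were lower, against 19.9% of 8603 genes. In 46 members all 3 loperamide libraries lay below all 3 DMSO libraries (52.9%, against 20.8% of all genes tested). The changes were small: 8 of the 87 members were called and differed by at least 1.5-fold, against 2694 of the 16808 genes tested. Without replicate 3 of loperamide 29 members were lower, and without replicate 3 of DMSO 58 were. In the same order 2055 of 17125 and 2836 of 17142 genes tested were lower. Fitting the replicate number as a block gave 60 lower and 1 higher, where 3849 and 4331 of the 16808 genes tested were. Blocked loperamide counts below are to be read against these.

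**Figure D2:**
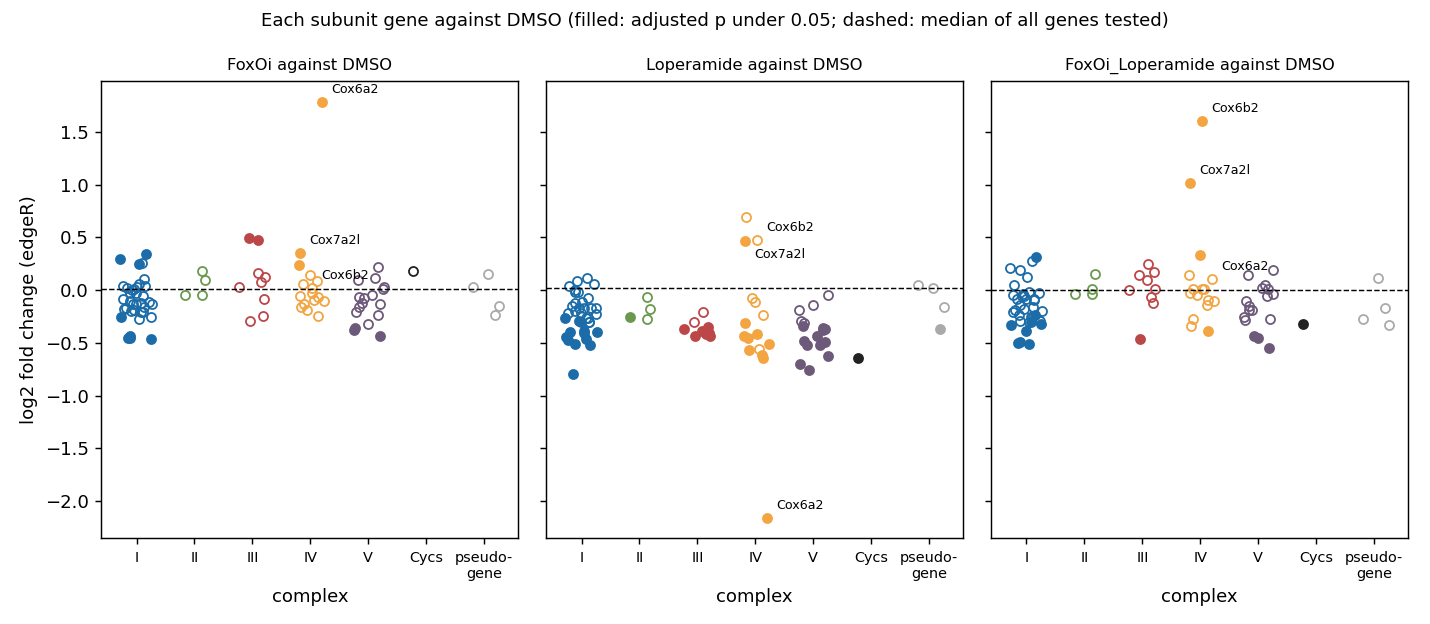
Log2 fold change (edgeR) of each tested member against DMSO in FoxOi, loperamide and FoxOi_Loperamide, by complex; filled points have an adjusted p under 0.05 and the dashed line is the median of all genes tested. With loperamide most points lie below the line, with 44 filled below it and 1 above.

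Complex I had 13 of 36 members lower with loperamide and a median log2 fold change of -0.22. The called genes came from both arms, 6 of 16 from the peripheral arm that oxidises NADH (10 with the replicate number as a block) and 6 of 19 from the membrane arm that pumps protons (11 with the block), and the acyl carrier Ndufab1, which sits in both, was the remaining one. With the block 22 of the 36 were lower. Ndufa1, a single-pass membrane subunit (chrX:37187588-37191163, GRCm38, minus strand), fell most. Its libraries had 151, 143 and 132 CPM in DMSO (replicates 1, 2 and 3) and 82.1, 84.1 and 79.3 CPM in loperamide, so the groups were far apart. The log2 fold change was -0.80 ± 0.10 (SE; adjusted p = 3.1e-05). Ndufb8, often used to follow assembled complex I on blots, fell from 178.2, 149 and 129.7 to 105, 114 and 101 CPM with -0.51 ± 0.11 (SE; adjusted p = 0.0034). Other called falls were those of Ndufv2 (-0.46), which carries an iron-sulphur cluster, and Ndufs3 (-0.45), a core subunit. Ndufv1, which binds NADH and FMN, had -0.15 ± 0.10 (adjusted p = 0.27) and Ndufs7, the last iron-sulphur subunit before quinone, 0.11 ± 0.11 (adjusted p = 0.49), and neither passed the test.

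Complex II, which is also succinate dehydrogenase of the citric acid cycle, had 1 called member of 4, and 3 with the replicate number as a block. Sdhc, a membrane anchor, fell by 0.25 on the log2 scale (adjusted p = 0.025), a call kept in 9 of the 15 alternative analyses described below. Sdha, the flavoprotein, had 242, 247 and 250.4 CPM in DMSO and 235, 234 and 238 CPM in loperamide, and the difference of -0.07 ± 0.07 did not pass the test. Sdhb, its iron-sulphur partner, had 131, 111 and 97.6 CPM in DMSO and 100.3, 96.8 and 83.7 CPM in loperamide. The groups overlapped, with -0.28 ± 0.11 (SE; adjusted p = 0.067). With that block it passed (adjusted p = 7.7e-04).

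Complex III fell more uniformly, with 7 of 9 members lower and a median of -0.39. Uqcrc2, a core protein, had 183, 174 and 161 CPM in DMSO and 128, 132 and 123 CPM in loperamide. All loperamide libraries were lower, with -0.44 ± 0.08 (SE; adjusted p = 6.6e-04). The called falls included its partner Uqcrc1 (-0.41), the haem protein Cyc1 (-0.39) and the Rieske iron-sulphur protein Uqcrfs1 (-0.37). The 2 others, Uqcrq (-0.31 ± 0.12, adjusted p = 0.062) and Uqcr10 (-0.21 ± 0.11, adjusted p = 0.15), are small subunits and passed only with the replicate number as a block (adjusted p = 6.0e-04 and 0.0085).

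In complex IV 9 of 16 members were lower, 1 was higher and the median was -0.42. Cox5b, which binds zinc on the matrix side, fell from 93.2, 84.5 and 77.8 to 59.6, 57.2 and 49.8 CPM, with -0.62 ± 0.11 (SE; adjusted p = 8.1e-04). Cox7b fell by 0.64 and Cox6a1 by 0.57 on the log2 scale. Cox4i1, the largest nuclear-encoded subunit, behaved differently: it had 309, 280.3 and 245 CPM in DMSO and 264, 260.4 and 249 CPM in loperamide, overlapping values with a difference of -0.11 ± 0.10 (adjusted p = 0.44). The largest fall and the only rise of all members, those of Cox6a2 and Cox7a2l, are described with the isoforms.

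Complex V had 12 of 17 members lower and a median of -0.38. The catalytic head fell together. Atp5b had 1179, 1167 and 1090.2 CPM in DMSO and 714, 759.9 and 759 CPM in loperamide, a change of -0.62 ± 0.07 (SE; adjusted p = 2.0e-05). Atp5a1, the alpha subunit, had 925, 908 and 901 CPM in DMSO and 672, 681 and 673 CPM in loperamide, a change of -0.43 ± 0.07 (SE; adjusted p = 2.2e-04). In both genes the spread within a group was small beside the gap. The gamma shaft Atp5c1 (-0.36), the delta subunit Atp5d (-0.38) and Atp5o of the stalk (-0.52) were called lower too. Members that did not pass were Atp5e, Atp5h, Atp5j2, Atp5l and Atp5mpl, from -0.31 to -0.05 on the log2 scale. Of these, Atp5h and Atp5j2 passed with the replicate number as a block (adjusted p = 4.5e-05 and 6.8e-04). Cycs fell from 125, 109.7 and 96.4 CPM in DMSO to 75.6, 69.0 and 67.1 CPM in loperamide, with -0.64 ± 0.11 (SE; adjusted p = 4.5e-04).

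**Figure D3:**
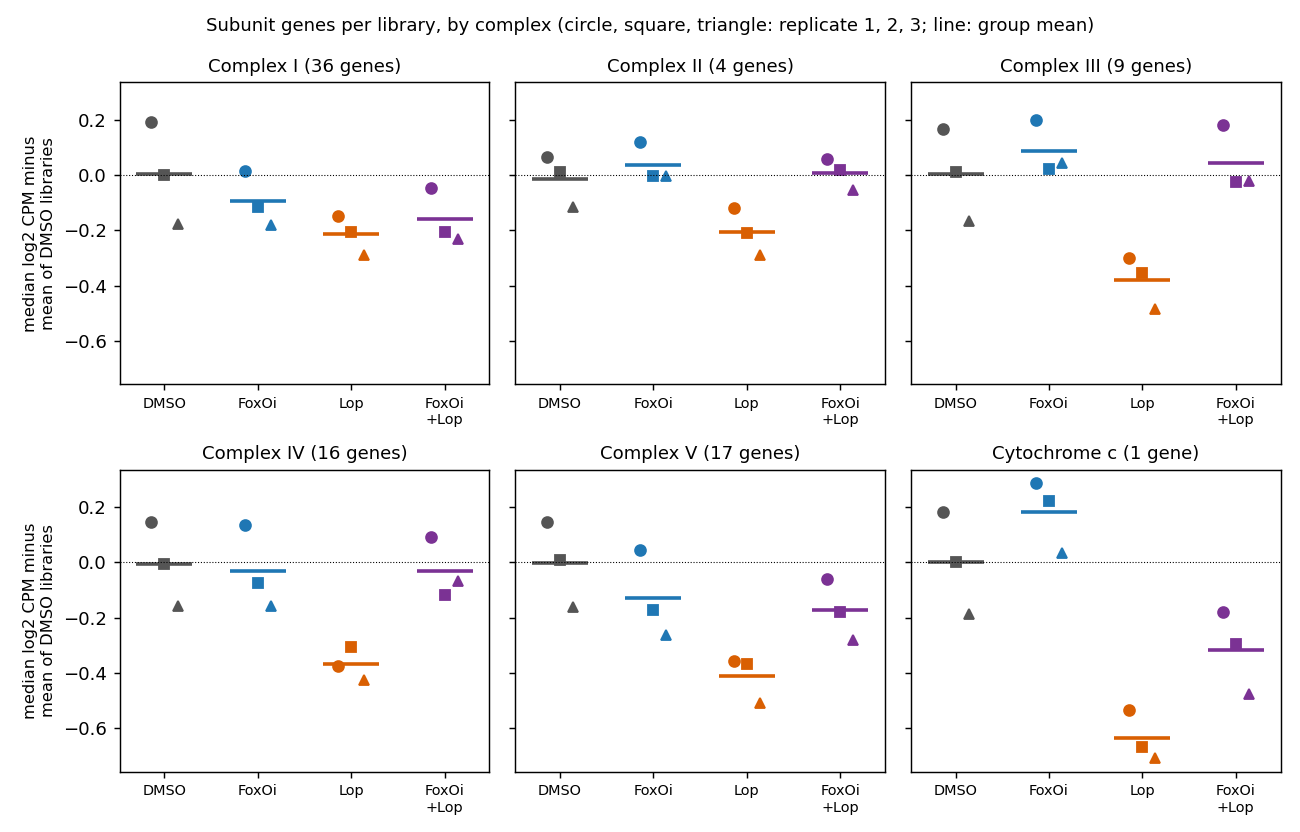
Median over the tested protein-coding genes of each complex of log2 CPM minus the mean of the 3 DMSO libraries, 1 point per library; the line is the group mean. Loperamide libraries lie lowest on average in every panel, and replicate 1 (circles) is the highest library of its group in most panels.

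Within each group the members differed by replicate number. Replicate 1 had the highest and replicate 3 the lowest median over the 87 members in all 4 groups: the DMSO libraries lay at 0.17, 0.0048 and -0.16 on the log2 scale around their mean and the loperamide libraries at -0.23, -0.28 and -0.41. The share of all counts taken by the members was lowest in loperamide: 1.03% ± 0.084 in DMSO, 1.09% ± 0.075 in FoxOi, 0.865% ± 0.044 in loperamide and 1.11% ± 0.054 in FoxOi_Loperamide (SD, n = 3).

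The stretch upstream of the start site was read for 70 of the 91 member names, those with an entry in the RefSeq promoter table (GRCm38.p6, 250 bases before to 50 after each start). Letters known from binding sites of factors that drive respiratory genes were searched on both strands: GCGCATGCG for NRF1, CCGGAAG for ETS factors such as GABPA, AAGATGGCG for YY1 and CAAGGTCA for the oestrogen-related receptors. NRF1 letters were present in 9 of 70 members (12.9%), against 1.95% of the 27025 gene names with an entry. A name was counted once if any of its windows held a match. The 27025 names were not limited to genes expressed here, whereas 68 of the 70 members were tested. Shares among the genes tested were not computed. The ETS letters were in 17 (24.3% against 9.93%), those of YY1 in 7 of 70 (against 1.64%) and those of the receptors in 4 (5.71% against 1.76%). The following stretches, each read 5′ to 3′ on the strand of its gene (the minus strand for all of them) and lying upstream of the start, are from genes that were lower with loperamide, and capitals mark the matches on either strand.
Cycs (chr6:50566602-50566681, NRF1): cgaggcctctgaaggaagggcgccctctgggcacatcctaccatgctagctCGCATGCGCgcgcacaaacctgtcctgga
Atp5g2 (chr15:102671060-102671139, NRF1): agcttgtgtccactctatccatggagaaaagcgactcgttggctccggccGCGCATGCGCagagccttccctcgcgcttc
Atp5k (chr5:108434420-108434499, NRF1): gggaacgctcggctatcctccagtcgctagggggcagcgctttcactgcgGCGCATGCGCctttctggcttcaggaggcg
Uqcrh (chr4:116075071-116075150, ETS): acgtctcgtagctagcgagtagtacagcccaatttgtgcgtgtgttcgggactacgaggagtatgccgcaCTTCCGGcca
Cox6b1 (chr7:30626116-30626195, ETS): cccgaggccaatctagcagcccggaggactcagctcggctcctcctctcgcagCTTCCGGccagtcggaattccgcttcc
Atp5j (chr16:84835011-84835090, YY1 then ETS): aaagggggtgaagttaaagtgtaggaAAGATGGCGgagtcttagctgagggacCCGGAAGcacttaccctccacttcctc

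In Atp5g2 and Atp5k the NRF1 letters occur on both strands, overlapping by all but 1 base. Counts of members lower with loperamide are given by these letters as a description: 15 of 28 tested members with an NRF1, ETS or YY1 match were lower (53.6%), and 20 of 40 without any of them (50.0%).

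FoxOi alone moved the members in both directions. Against DMSO 8 were lower and 8 higher, at 20.3% and 20.7% of all genes. The median was -0.07 over members and 0.01 over all genes. With the replicate number as a block 25 were lower and 14 higher (27.1% and 29.0% of all genes). Scaling by total counts, which put the median of all genes at 0.11, gave 4 lower and 14 higher, where 2656 and 4568 of the 16808 genes tested were. The members' median minus that of all genes was then -0.08. Single libraries moved these counts. Without replicate 3 of DMSO 22 members were lower, without replicate 1 of FoxOi 16, without replicate 1 or 2 of DMSO 5 and without replicate 2 or 3 of FoxOi 4. In these fits 2915 to 3633 genes were lower, of 16974 to 17142 tested. The higher members numbered 3 without replicate 3 of DMSO or replicate 1 of FoxOi and 4 without replicate 2 of DMSO.

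Complex I had 5 lower and 3 higher members with FoxOi, and 12 and 4 with the replicate block. Ndufb11 fell from 169, 152 and 125 to 124, 103 and 96.6 CPM, with -0.47 ± 0.12 (SE; adjusted p = 0.0047), and Ndufa1 from 151, 143 and 132 to 115, 105 and 90.5 CPM, with -0.46 ± 0.10 (SE; adjusted p = 0.0017). Ndufb8 fell to 128, 108 and 102 CPM, with -0.44 ± 0.11 (SE; adjusted p = 0.0066). All 3 are membrane-arm subunits with groups that did not overlap. Ndufb11 overlaps Rbm10 on the opposite strand, which had 76.0% as many counts, and whether strand was used in counting is not given. The 3 higher members were Ndufa10 (0.34), Ndufb6 (0.29) and Ndufc2 (0.25), also of the membrane arm. The call of Ndufc2 was lost without replicate 2 or 3 of DMSO or replicate 1 of FoxOi.

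In complex III 2 small accessory subunits rose with FoxOi. Uqcrq went from 229.5, 188 and 161 to 286, 279 and 251 CPM, with 0.50 ± 0.12 (SE; adjusted p = 0.0036). Uqcr10 went from 83.3, 75.5 and 68.9 to 115, 104 and 97.1 CPM, with 0.47 ± 0.10 (SE; adjusted p = 0.0022). In both the FoxOi libraries lay above all DMSO libraries. None of the 9 was lower (1 at an unadjusted p under 0.05, none with DESeq2), but 2 were with the replicate block. In complex IV 3 of 16 were higher (Cox6a2, Cox7a2l and Cox5a) and none lower, and in complex V 3 of 17 were lower (Atp5md, Atp5e and Atp5g2) and none higher. The call of Atp5g2 was lost without replicate 2 of DMSO or replicate 2 or 3 of FoxOi. In those directions complexes IV and V, and in both directions complex II, also had no member at an unadjusted p under 0.05 or with DESeq2. With the replicate block complex IV had 2 lower, complex V 8 lower and 1 higher, and complex II 1 higher (Sdhb, adjusted p = 0.0095). Cycs was not called either, at 134, 128 and 112 CPM (a difference of 0.18 ± 0.11, adjusted p = 0.21, and 0.010 with the block).

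With both compounds, 14 members were lower and 4 higher than in DMSO, at 23.2% and 22.3% of all genes, and the median was -0.09 against 0.01. With the replicate block 29 were lower and 14 higher (29.3% and 29.7% of all genes), with total counts 4 lower and 15 higher, at a median of 0.07 over members and 0.17 over all genes. Total counts called 2825 of the 16808 genes tested lower and 5552 higher. Without replicate 3 of DMSO 28 members were lower, without replicate 1 of DMSO or replicate 2 of the combination 6, and without replicate 2 of DMSO or replicate 3 of the combination 7. In these fits 3364 to 3860 genes were lower, of 16986 to 17142 tested. The higher members numbered 8 without replicate 1 of DMSO and 2 without replicate 3 of DMSO or replicate 1 of the combination. Complex I held 8 of the falls (16 with the replicate block), among them Ndufc2 from 112, 105 and 95.7 to 75.6, 70.1 and 73.4 CPM (-0.51 ± 0.08, SE, adjusted p = 1.4e-04) and Ndufa1 to 111, 93.7 and 95.5 CPM (-0.51 ± 0.10, SE, adjusted p = 7.0e-04). Atp5md, a small subunit of the membrane part of the ATP synthase, fell from 70.8, 65.1 and 54.4 to 50.0, 39.6 and 40.2 CPM (-0.55 ± 0.12, SE, adjusted p = 0.0018). Atp5a1 and Atp5b were at 912, 916 and 936 and at 1082, 1080.0 and 1179.6 CPM, differing from DMSO by 0.02 ± 0.07 and -0.04 ± 0.07, which did not pass. Complex V had 3 lower members, and 9 lower and 2 higher with the replicate block, and complex III had 3 higher with it. The 4 rises without the block were those of Cox6b2, Cox7a2l, Cox4i1 and Ndufa10. Cox4i1 reached 379, 323 and 347 CPM, all above its DMSO libraries, with 0.33 ± 0.10 (SE; adjusted p = 0.014), a call lost without replicate 3 of DMSO or replicate 1 of the combination.

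Loperamide added to the inhibitor changed few members. Against FoxOi alone 5 were lower and 2 higher, at 15.1% and 11.5% of all genes, with a median of -0.05 over members and 0.00 over all genes. The replicate block gave 15 lower and 8 higher (23.0% and 21.6% of all genes). Total counts gave 3 lower and 5 higher, where 2171 and 2588 of the 16808 genes tested were. Without replicate 1 or 2 of FoxOi, or replicate 2 or 3 of the combination, 3 members were lower. In these fits 2007 to 2124 genes were lower, of 16985 to 17138 tested. The largest falls were in Cox6a2, in Ndufc2 and in Cycs. Ndufc2, a membrane-arm subunit of complex I, went from 131, 118.1 and 123 to 75.6, 70.1 and 73.4 CPM with groups far apart (-0.76 ± 0.08, SE, adjusted p = 6.8e-06). Cycs went from 134, 128 and 112 to 96.8, 89.4 and 78.8 CPM (-0.50 ± 0.11, SE, adjusted p = 0.0033), also without overlap. Uqcrq of complex III was lower too (-0.35), a call lost without any 1 of the same 4 libraries. In complex V none of 17 was called by edgeR or DESeq2, and 1 was lower and 1 higher at an unadjusted p under 0.05, while with the replicate block 3 were lower and 2 higher.

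Adding the inhibitor to loperamide gave higher levels for a large minority of members. Against loperamide alone 37 of 87 were higher, 50 were not called and none was lower (2 were lower at an unadjusted p under 0.05, and none with DESeq2), at 18.4% and 20.5% of all genes, with a median of 0.22 over members and -0.01 over all genes. The replicate block gave 52 higher and 4 lower (25.8% and 27.8% of all genes). In 48 members the FoxOi_Loperamide libraries all lay above the loperamide libraries (55.2%, against 24.2% of all genes tested). By complex, 6 of 36 members of complex I, 3 of 4 of complex II, 7 of 9 of complex III, 10 of 16 of complex IV and 10 of 17 of complex V were higher, as was Cycs. With the block complex I had 14 higher and 2 lower, and complexes IV and V 1 lower each. In complex II the call of Sdhd was kept in all 15 alternative analyses, and those of Sdhb and Sdhc in 8. Atp5b rose from 714, 759.9 and 759 to 1082, 1080.0 and 1179.6 CPM (0.58 ± 0.07, SE, adjusted p = 2.5e-05), Atp5a1 from 672, 681 and 673 to 912, 916 and 936 CPM (0.45 ± 0.07, SE, adjusted p = 1.2e-04) and Uqcrc2 from 128, 132 and 123 to 184, 169.7 and 169.8 CPM (0.45 ± 0.08, SE, adjusted p = 3.8e-04). In each of these 3 the libraries with both compounds overlapped the DMSO libraries. Ndufb8 was at 113, 105 and 106 CPM, overlapping loperamide alone, with 0.02 ± 0.11 (adjusted p = 0.93). Complex I had the smallest median of the complexes here, 0.09. Without replicate 1 of FoxOi_Loperamide or replicate 3 of loperamide 23 members were higher, and without replicate 1 of FoxOi_Loperamide or replicate 2 of loperamide 1 was lower. Where 23 members were higher, 2645 of 17025 and 2531 of 17125 genes tested were.

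**Figure D4:**
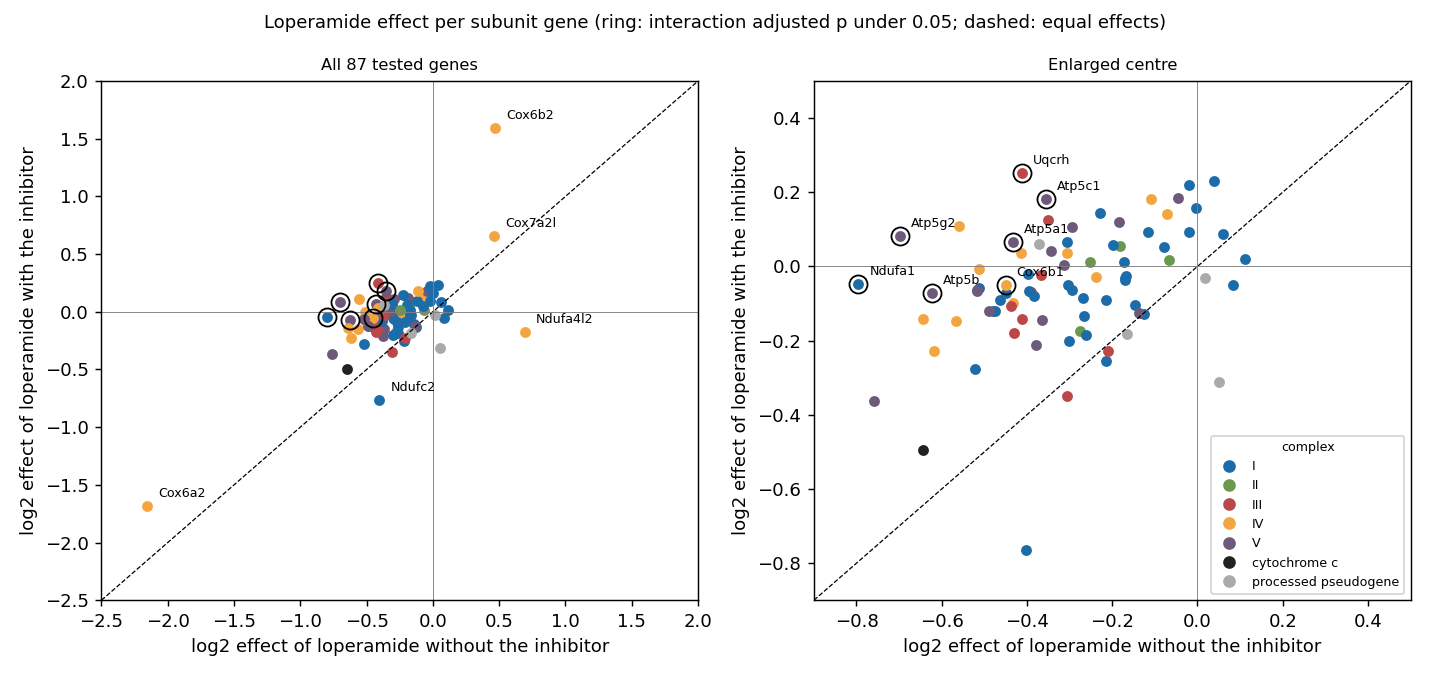
Log2 effect of loperamide on each member without the inhibitor (loperamide against DMSO, x axis) and with it (FoxOi_Loperamide against FoxOi, y axis), for all 87 genes and for the centre enlarged. Most points, 76 of 87, lie above the dashed line of equal effects, and rings mark the 7 whose interaction had an adjusted p under 0.05.

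The difference between the effect of loperamide with and without the inhibitor was tested as an interaction. It was positive, a weaker fall or a rise with the inhibitor, in 76 of 87 members, and 7 passed the test while none passed in the other direction (1 at an unadjusted p under 0.05, and 1 with DESeq2), at 3.66% and 5.82% of all genes. The median was 0.26 over members and -0.02 over all genes. With the replicate block 46 were higher and 1 lower (11.4% and 14.4% of all genes), with total counts 7 and 1, while without replicate 3 of DMSO 24 were higher and without replicate 1 of FoxOi 18. Total counts called 553 of the 16808 genes tested higher and 1132 lower. Leaving out these libraries gave 956 of 17142 and 752 of 16985 genes higher, in the same order. The 7 that passed without the block were Atp5a1, Atp5b, Atp5c1 and Atp5g2 of complex V, Ndufa1 of complex I, Uqcrh of complex III and Cox6b1 of complex IV. Atp5g2, which encodes the c subunit of the rotor, had the largest at 0.78 ± 0.18 (SE; adjusted p = 0.013). Its libraries had 22.7, 24.6 and 22.0 CPM in DMSO, 13.4, 17.0 and 12.3 in loperamide, 20.5, 17.8 and 15.6 in FoxOi and 19.7, 18.4 and 18.9 in FoxOi_Loperamide. Its level was lowest on average in loperamide alone, overlapping the FoxOi libraries. Uqcrh, the hinge protein of complex III, had 137, 123 and 109 CPM in DMSO, 94.8, 95.5 and 86.8 in loperamide, 129, 113 and 106 in FoxOi and 154, 126 and 133 in FoxOi_Loperamide, with an interaction of 0.66 ± 0.15 (SE; adjusted p = 0.011). By complex the median interaction was 0.18 in complex I, 0.17 in complex II, 0.32 in complex III, 0.40 in complex IV and 0.38 in complex V. With the block the interaction was higher in 13 of 36 members of complex I, 2 of 4 of complex II and 7 of 9 of complex III. In complex IV 9 of 16 were higher with the block, and in complex V 14 of 17. The 1 lower member was of complex I. Differences between complexes were not tested.

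The loperamide effects without and with the inhibitor come from libraries that are not shared, and over the 87 members they correlated with Pearson's r = 0.66. Without Cox6a2 r was 0.47, and over all 16808 genes it was 0.52. These values are across genes, which are not independent, and describe only these libraries.

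Alternative isoforms of complex IV subunits included the largest fall and the largest rises among the members. Cox6a2 is the heart and muscle form of a complex IV subunit whose common form is Cox6a1. Its libraries had 10.7, 10.2 and 5.94 CPM in DMSO, 33.7, 33.0 and 26.4 in FoxOi, 1.96, 2.13 and 1.94 in loperamide and 8.43, 9.55 and 11.03 in FoxOi_Loperamide. FoxOi and loperamide lay on opposite sides of DMSO, with no overlap, and the combination overlapped DMSO. The rise with FoxOi was 1.79 ± 0.18 (SE; adjusted p = 2.1e-06) and the fall with loperamide -2.16 ± 0.24 (SE; adjusted p = 9.8e-06). Loperamide on top of FoxOi gave -1.68 ± 0.18 (SE; adjusted p = 5.1e-06) and FoxOi on top of loperamide 2.26 ± 0.23 (SE; adjusted p = 3.8e-06), while both compounds against DMSO gave 0.10 ± 0.19 (adjusted p = 0.68). The interaction was 0.48 ± 0.30 (adjusted p = 0.38), so the loperamide effect was not shown to depend on the inhibitor. Cox6a2 made up 2.82% ± 0.511 of the summed FPKM of both forms in DMSO, 9.98% ± 0.648 in FoxOi, 0.969% ± 0.0565 in loperamide and 3.72% ± 0.586 in the combination (SD, n = 3).

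Cox7a2l, a relative of the Cox7a subunits that joins complexes III and IV into supercomplexes, was the single member higher in all 5 comparisons of groups. It had 93.8, 79.7 and 73.1 CPM in DMSO, 114, 96.4 and 105 in FoxOi, 126, 106 and 108 in loperamide and 175, 149.9 and 174 in FoxOi_Loperamide. The combination was above every other library. Log2 fold changes against DMSO were 0.36 ± 0.11 (SE; adjusted p = 0.018) with FoxOi, 0.46 ± 0.11 (SE; adjusted p = 0.0051) with loperamide and 1.02 ± 0.11 (SE; adjusted p = 3.4e-06) with both. The first of these was lost without replicate 2 or 3 of DMSO or replicate 1 of FoxOi. Its relative Cox7a2 fell with loperamide (-0.31, adjusted p = 0.029), a call lost without any 1 of replicates 1, 2 and 3 of loperamide or replicate 1 or 2 of DMSO, and Cox7a1 stayed between 0.745 and 2.50 CPM with no call.

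Cox6b2, the testis form of Cox6b1, was expressed at a trace and rose in the combination. Libraries had 0.639, 0.684 and 1.03 CPM in DMSO, 0.928, 0.768 and 0.665 in FoxOi, 0.745, 1.14 and 1.29 in loperamide and 3.37, 1.56 and 2.13 in the combination, whose values lay above all others but spread widely. The rise against DMSO was 1.61 ± 0.33 (SE; adjusted p = 0.0011). The interaction was 1.12 ± 0.51 (adjusted p = 0.20), so a dependence on both compounds was not shown. Against loperamide alone the rise of 1.14 ± 0.32 (adjusted p = 0.012) was lost without replicate 1 of the combination. Ndufa4l2, a hypoxia-linked form of the complex IV subunit Ndufa4, lay between 0.305 and 1.68 CPM without a call in the fit with no block. With the block it was lower in the combination than in loperamide (log2 fold change -1.09, adjusted p = 0.013). It overlaps Shmt2 on the opposite strand, a gene with 71866 counts to its 160, and whether reads of Shmt2 were counted there cannot be told. Of the 3 genes for the identical mature c subunit, Atp5g3 gave 86.7% ± 0.252 of the summed FPKM in DMSO and 89.5% ± 1.20 in loperamide. All 3 fell with loperamide: Atp5g1 by 0.76, Atp5g2 by 0.70 and Atp5g3 by 0.34 on the log2 scale. Atp5g1 fell from 133, 106 and 85.8 to 66.2, 65.8 and 60.0 CPM (adjusted p = 0.0012). Cox8a, the form of Cox8 found here, fell by 0.41, whereas Cox8b and Cox8c had 0 counts and Cox4i2 had 1.

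**Figure D5:**
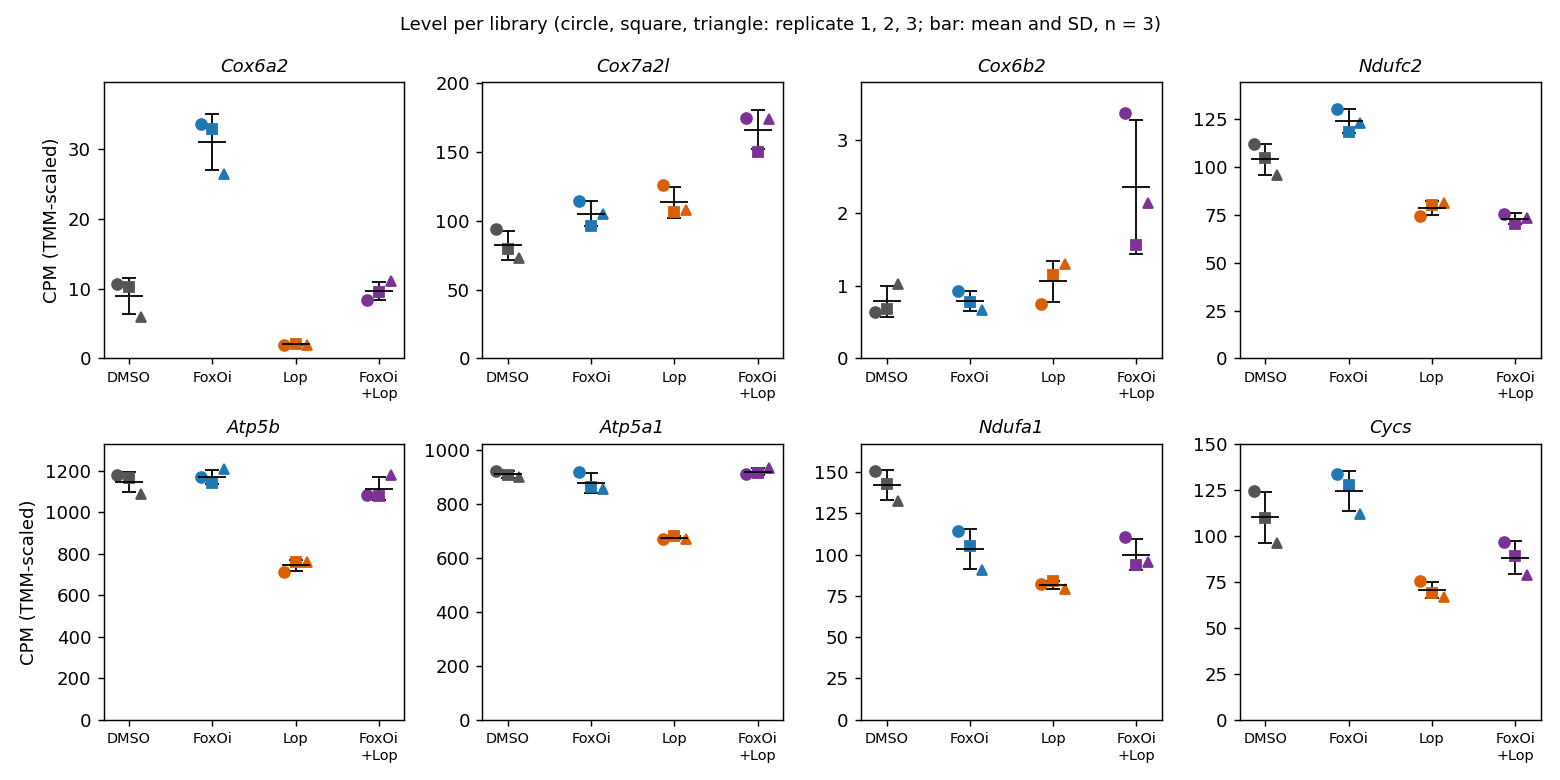
CPM per library of 8 members in the 4 groups, with the group mean and SD (n = 3). Cox6a2 is highest in FoxOi and lowest in loperamide, Cox7a2l and Cox6b2 are highest in the combination, Ndufc2 is low in both loperamide groups, and Atp5b and Atp5a1 are low in loperamide alone.

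Processed pseudogenes are treated apart from the complexes. Cox6c2 had 41.3, 43.0 and 39.9 CPM in DMSO and 31.1, 33.7 and 31.2 in loperamide and was called lower (-0.37, adjusted p = 0.0081). Its parent Cox6c had 108, 106 and 89.0 and 101, 91.2 and 96.2 CPM with no call. Reads of such near-identical copies can be assigned to either, so both values are uncertain. Ndufa11b, Ndufb4c and Ndufs6b were not called in any comparison of the fit with no block. Apart from Ndufb11 and Ndufa4l2, 5 members overlap a gene on the opposite strand with more than 50% as many counts: Ndufb2, Ndufs1, Ndufs3, Cox6c and Atp5d.

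Assembly factors, which build the complexes without being part of them, were tested as separate lists, to be read against 15.8% of all genes lower and 16.1% higher with loperamide. With loperamide none of 16 for complex I was called by edgeR or DESeq2 (2 were lower at an unadjusted p under 0.05), and 3 were lower with the replicate block. Of the 4 for complex II none was lower, also at an unadjusted p under 0.05 and with DESeq2, while Sdhaf4 was higher (0.44). Of 6 factors for complex III 1 was lower (Bcs1l, which inserts the Rieske protein, -0.30). Of 23 for complex IV 2 were lower (Cox16, -0.54, and Cmc2, -0.50) and 1 higher (Lrpprc, which stabilises mitochondrial mRNA, 0.47). Of 4 for complex V 1 was lower (Tmem242, -0.37). With the block 5 were lower and 2 higher for complex IV, 2 lower for complex V and 1 higher for complex III. With FoxOi, Sco2, a copper chaperone of complex IV, rose by 1.30 ± 0.18 (adjusted p = 3.6e-05) and Cox20 changed by -0.85, the extremes of the 4 higher and 3 lower of 23 factors for complex IV (17.4% and 13.04%, against 20.7% and 20.3% of all genes). With the block 7 were higher. Uqcc2 of complex III changed by -0.84 and Ndufaf3 of complex I by -0.73 in the same comparison.

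Of 9 tested subunits encoded by mitochondrial DNA 4 were higher with loperamide (44.4%, against 16.1% of all genes) and none lower (against 15.8%). None was lower at an unadjusted p under 0.05 or with DESeq2 either, and the median was 0.48. With the replicate block 5 were higher and 2 lower, where 4331 and 3849 of the 16808 genes tested were. mt-Nd2, a membrane subunit of complex I, had 1873, 1501 and 1354 CPM in DMSO and 4704, 3470.2 and 3572 CPM in loperamide, without overlap, a change of 1.31 ± 0.15 (SE; adjusted p = 1.4e-05). The others called were mt-Nd3 (0.97), mt-Nd4l (0.71) and mt-Nd4 (0.68), all of complex I, while mt-Co1 of complex IV had -0.34 ± 0.18 (adjusted p = 0.17) and mt-Cytb of complex III -0.17 ± 0.20 (adjusted p = 0.56). These last 2 were the lower ones with the block (adjusted p = 4.1e-04 and 0.014). With both compounds 5 of 9 were higher than in DMSO (55.6%, against 22.3% of all genes, median 0.54). For FoxOi none of 9 was called (median 0.13), where 20.7% of all genes were higher and 20.3% lower. None of the 9 passed at an unadjusted p under 0.05 or with DESeq2 either. Under the block 4 were higher with FoxOi, as were 29.0% of all genes. mt-Co2, mt-Co3, mt-Atp6 and mt-Atp8 had at most 6 counts over all libraries and were not tested. The 9 tested therefore held no subunit of complex V, and of complex IV only mt-Co1. Why these counts were so low was not tested.

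Among 15 tested regulators of respiratory genes, 5 were higher (33.3%) and 1 lower (6.67%) with loperamide, against 16.1% and 15.8% of all genes. Esrra, the oestrogen-related receptor alpha, had 20.4, 20.02 and 16.6 CPM in DMSO, 27.4, 26.5 and 24.4 in loperamide, 39.5, 35.0 and 35.6 in FoxOi and 51.3, 47.8 and 48.0 in the combination, with log2 fold changes against DMSO of 0.46, 0.95 and 1.37 (adjusted p = 0.0034, 3.3e-06 and 6.2e-08). Ppargc1b, a coactivator, rose by 1.01 ± 0.30 with loperamide and by 1.94 ± 0.27 with FoxOi. Ppargc1a, its better-known relative, had 7 counts over the DMSO libraries and 60 over the FoxOi libraries, a change of 2.76 ± 0.55 (SE; adjusted p = 9.8e-04). Yy1 (0.49), Tfam (0.22) and Gabpb2 (0.51) were higher with loperamide, and Pprc1, another relative of these coactivators, was lower (-0.49). Nrf1 (-0.16 ± 0.09) and Gabpa (0.09 ± 0.12) did not pass the test.

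Enzymes that feed the chain included more lower than higher genes with loperamide. Of 21 genes for the citric acid cycle and pyruvate entry 10 were lower (47.6%) and 2 higher (9.52%), against 15.8% and 16.1% of all genes, with a median of -0.25. Fh1, fumarase, changed most, by -1.44 ± 0.13, from 207, 190.3 and 164 to 65.8, 80.2 and 61.0 CPM, and Idh2 and Pcx rose by 0.43 and 0.26. With FoxOi 6 were higher (28.6%, against 20.7% of all genes) and 3 lower (14.3%, against 20.3%, and 5 with the block), Suclg2 (0.74) and Pcx (-1.22) being the extremes. The FoxOi_Loperamide libraries had 11 higher (52.4%, against 18.4% of all genes) and 1 lower (4.76%, against 20.5%, and 2 with the block) against loperamide alone. Mpc1, of the mitochondrial pyruvate carrier, rose most against DMSO in that group, by 1.84 ± 0.15. Of 18 carriers, porins and import genes 13 were higher (72.2%, against 20.7% of all genes) and none lower with FoxOi (none also at an unadjusted p under 0.05 and with DESeq2), led by the chaperone Hspa9 at 1.31 ± 0.08, while with loperamide 5 were lower (27.8%) and 4 higher (22.2%), and 9 lower with the block, from Tomm40 at -0.41 to Vdac3 at 0.39. Slc25a5, which exchanges ATP for ADP, fell by 0.36 and Slc25a3, the phosphate carrier, by 0.27 on the log2 scale with loperamide.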

How the data were processed

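RNA sequencing of 12 Min6 libraries, 3 in each of 4 groups, gave 2 deposited tables of the same 55487 genes. Count values are the authors' raw counts per gene, and FPKM values are the authors' own. Per the submitters' processing notes, reads were handled with STAR 2.7.5a, Picard 2.19.2 and DESeq2 on GRCm38 (mm10). The counting tool, its strand setting and the annotation were not given in the sources used here. Over 11651 genes checked, counts divided by the deposited FPKM gave a library factor within 0.226% of the size factors of DESeq2. The factor left for each gene was not compared with its length. Locations of all 92 members, from the count table, matched GENCODE M21.

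From the counts, edgeR 4.0.16 in R 4.3.3 was fitted to all 12 libraries by group (TMM scaling, filterByExpr with a minimum count of 10 and a total of 15, prior count 0.125, robust quasi-likelihood test). P-values were adjusted by Benjamini-Hochberg over 16808 genes, and a gene was called at an adjusted p under 0.05. SE is the log2 fold change over the root of F. CPM uses the TMM-scaled library size. Depth, from 10640485 to 19499216 counts, sets the precision: it is least for genes near the count minimum. Libraries of a group differed beyond counting noise (chi-square per degree of freedom from 4.98 to 30.6), so none was treated as a duplicate.

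Alternatives were DESeq2 1.42.0, limma 3.58.1 on log2(FPKM + 1) and log2(FPKM + 0.1), other scalings and filters, fits of 2 groups, the replicate block, and leaving out each library. Replicate numbers go with a library code that the groups share in the labels, whose meaning the labels do not give. Deviations from the group means correlated in all 18 pairs of libraries with the same number (r from 0.124 to 0.651, over 0.1 in each), and at -0.629 to 0.194 in the others, so the numbers were taken as pairing the libraries. The main fit leaves this pairing out, so a gene that did not pass in it may pass with the block. Members lower with loperamide were 44 in the main fit and 60 with the block, and those higher for the interaction 7 and 46. Blocked values are given where they change a printed call or move a printed count by more than 1.5-fold.

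Members and lists were chosen with earlier results of these data known. Values in full are given for the blot markers of each complex (Ndufb8, Sdhb, Uqcrc2, Cox4i1, Atp5a1), Cycs, isoform families, and the 3 largest called rises and falls in a comparison whose groups do not overlap, with a mean of at least 1 CPM. From related lists the largest called rise and fall, and any regulator, could be named. Genes named beyond this (such as Sdha, Uqcrc1, mt-Co1, Slc25a3 and Slc25a5) were chosen after their values were seen. The values of 1 member that this rule would name are not reported here.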

Additional observations from a re-analysis of the deposited data

Results flagged for a closer look

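For 7 members the effect of loperamide differed between cells with and without the inhibitor, by the interaction test of edgeR's quasi-likelihood model (adjusted over 16808 genes). The difference, effect with FoxOi minus effect without on the log2 scale, was 0.75 for Ndufa1 (adjusted p = 0.0030), 0.66 for Uqcrh (0.011), 0.40 for Cox6b1 (0.037), 0.50 for Atp5a1 (0.0036), 0.55 for Atp5b (0.0034), 0.54 for Atp5c1 (0.020) and 0.78 for Atp5g2 (0.013). In each of them loperamide alone was called lower than DMSO, while FoxOi_Loperamide against FoxOi was not called. With the replicate block the latter was called higher for Uqcrh (adjusted p = 0.0014) and Atp5c1 (adjusted p = 0.0074), and for Uqcrh also by total counts and without replicate 1 of FoxOi. Of the 7, 5 were called under all 20 alternatives, Atp5c1 under 17 and Cox6b1 under 11.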

How the results depend on the processing

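No called member of the named genes changed sign under any alternative. Of 2660 values of named genes under an alternative, 2461 kept their side of the threshold, 102 lost a call and 97 gained one. Calls kept under every alternative numbered 7 of 16 for FoxOi, 28 of 45 for loperamide, 6 of 18 for both compounds, 5 of 7 for both against FoxOi and 20 of 37 for both against loperamide (15 alternatives each), and 5 of 7 for the interaction (20). Scaling by total counts put the median of all genes at 0.11 with FoxOi, 0.12 with loperamide and 0.17 with both, and that of members at 0.04, -0.21 and 0.074 (median log2 fold change with both compounds against DMSO). Members minus all genes was -0.08, -0.33 and -0.09, and 30 members were lower with loperamide, where 1954 of the 16808 genes tested were. Cox6b2 and Ndufa4l2 had too few counts for small changes to be detectable at this depth. For each move below the cause was not tested.

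Against DMSO, lower members with FoxOi were 8, but 4 by total counts, by limma on log2(FPKM + 1) with no filter and by the fit of 2 groups, and 25 with the replicate block. Higher members were 14 by total counts, 5 with no filter and 14 with the block. Of all 16808 genes tested, total counts called 2656 lower and 4568 higher, and the block 4549 and 4879. With no filter 3581 of 31555 genes were higher. By unfiltered FPKM 2982 of 31555 were lower, and by the fit of 2 groups 2998 of 16217. With both compounds lower members were 4 by total counts, 29 with the block, 7 by unfiltered FPKM and 8 by the fit of 2 groups, and higher ones 15 by total counts and 14 with the block. Of all genes tested, 2825, 4926, 3516 and 3367 were lower in the same order, and 5552 and 4990 higher. For both against FoxOi lower members were 3 by total counts, 15 with the block and 3 by unfiltered FPKM, and higher ones 5 and 8 with the first 2 of these. Of all genes tested, 2171, 3866 and 2058 were lower in the same order, and 2588 and 3637 higher. For both against loperamide 1 was lower with no filter and 4 with the block, where 3342 of 31555 and 4672 of 16808 genes were. For the interaction 1 was lower by total counts, by DESeq2 and with the block, and 12 were higher by DESeq2, 14 with no filter and 46 with the block. Of all genes tested, 1132, 1109 and 2414 were lower in the same order, and 860, 919 and 1921 higher. The block lost no call of a named gene and gained 36, and it changed no other call of a member printed with its statistics.

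Leaving out 1 library gave, against DMSO, 4 to 22 lower and 3 to 9 higher members with FoxOi (median -0.16 to -0.03), 29 to 58 lower with loperamide (median -0.41 to -0.26), and 6 to 28 lower and 2 to 8 higher with both (median -0.17 to -0.03). Both against FoxOi gave 3 to 6 lower and 2 to 3 higher (median -0.11 to 0.05). Both against loperamide gave 23 to 36 higher and 0 to 1 lower (median 0.18 to 0.27), and the interaction 5 to 24 higher (median 0.22 to 0.37). Over all genes tested, 16974 to 17142 in these fits, 2915 to 3633 were lower with FoxOi against DMSO and 2618 to 3099 higher. With loperamide 2055 to 2836 were lower, and with both 3364 to 3860 were lower and 3073 to 3440 higher. Both against FoxOi had 2007 to 2244 lower and 1270 to 1859 higher. Both against loperamide had 2531 to 2724 higher, and the interaction 465 to 956 higher.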
